A study of Mus musculus with 10 samples.

Results

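The complement system was examined in the uterus through 9 genes: the components *C3*, *C2*, *C4b*, *Cfb*, *Cfd* and *Masp2*, the receptors *C3ar1* and *C5ar1*, and the membrane regulator *Cd55*. They were picked by gene symbol through the GRCm38 annotation, and all 9 were found among the 45706 genes of the count table. RNA was sequenced from the uteri of 5 mice of the genotype Arid1a f/f, the controls, and 5 of the genotype Ltf iCre/+ Arid1a f/f, called Cre-positive here. All were adult females at gestation day (GD) 3.5, when the uterus is being prepared for an implanting embryo. Both genotypes carry floxed alleles of *Arid1a*, a chromatin remodelling subunit, and only the second carries iCre recombinase, which is driven from the lactoferrin locus and deletes *Arid1a* mainly in the endometrial epithelium. The study's methods describe a mixed C57BL/6 and 129 background, and its text states that this Cre line can also be active in neutrophils and other myeloid cells. RNA was taken from unfractionated uterine tissue, so that a difference in RNA per cell and a difference in the number of cells of a type cannot be told apart.

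Complement is a cascade of proteases. The classical pathway (C1q, C1r, C1s) and the lectin pathway (mannose-binding lectins, ficolins, MASP proteases) both cleave C4 and C2, whose fragments form an enzyme that cleaves C3. The alternative pathway amplifies this step through factor B, which is activated by factor D. Fragments of C3 and C5 attract and activate myeloid cells through the C3a and C5a receptors, and regulators such as CD55 and factor I stop the cascade on the body's own cells. In the rodent uterus, epithelial C3 is a classical estrogen-induced product.

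Between 59296537 and 72702411 counts per library were assigned to genes, and levels are given as CPM, in which each library is scaled to the same total after TMM correction. The genotype difference was tested with the quasi-likelihood method of edgeR in the 25146 genes that averaged 1 count or more per library, and p-values were adjusted over all of them (Benjamini-Hochberg). Log2 CPM of single genes was also compared by two-sided exact permutation, where the smallest p that 5 uteri per genotype allow is 0.00794. The targeted gene *Arid1a* ranged from 192 to 251 CPM in control uteri and from 165 to 208 CPM in Cre-positive uteri (log2 fold change -0.20, SE 0.09, edgeR adjusted p = 0.201). *Ltf*, the gene that carries the Cre, ranged from 2.22 to 11.7 CPM in controls and from 23.6 to 2831 CPM in Cre-positive uteri, with an edgeR adjusted p of 0.0092. The uterine stromal markers *Hoxa11*, from 147 to 347 CPM, and *Hand2*, from 54.6 to 118 CPM, were present in all 10 libraries.

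Of the 9 complement genes, *Cfb* rose and *Masp2* fell in Cre-positive uteri, and the other 7 did not pass the edgeR test. Among all tested genes 5.19% rose, 4.51% fell and 9.70% changed in either direction. Fitted log2 fold changes were above 0 for 7 complement genes and below 0 for 2, with a median of 0.84 against 0.03 over all tested genes. The unadjusted p of edgeR was under 0.05 for 6 of the 9, and for 26.2% of all tested genes. DESeq2 called 3, *C2*, *Cfb* and *Masp2*, and 19.0% of all genes to which it gave an adjusted p. The values of the 2 genotypes did not overlap for 3 genes, *Cfb*, *Masp2* and *C5ar1*, and 10.7% of all tested genes showed no overlap. One Cre-positive uterus, replicate 5, held the highest value of its genotype for 7 of the 9 genes, and these 7 were above every control there. Control replicate 1 was the lowest control for 6 of the 9 genes.

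**Figure D1:**
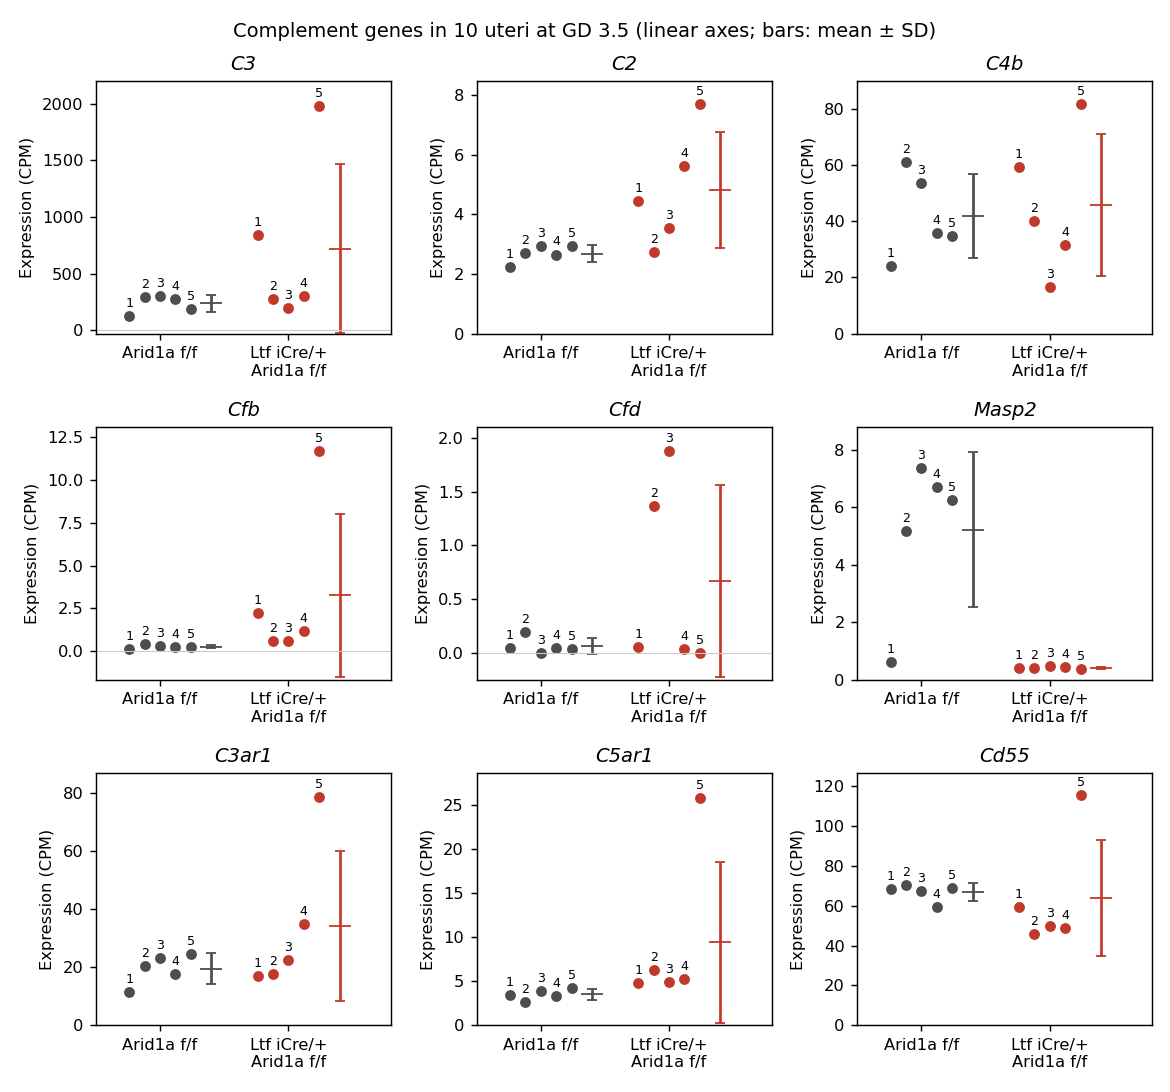
Expression of the 9 complement genes in CPM (linear vertical axes) in each of 5 control (grey) and 5 Cre-positive uteri (red); numbers are replicate numbers and bars the mean ± SD. Replicate 5 of Cre-positive was highest for 7 genes, while *Masp2* was at 0.376 to 0.474 CPM in all 5 uteri of that genotype and at 0.601 CPM in control replicate 1.

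**Figure D2:**
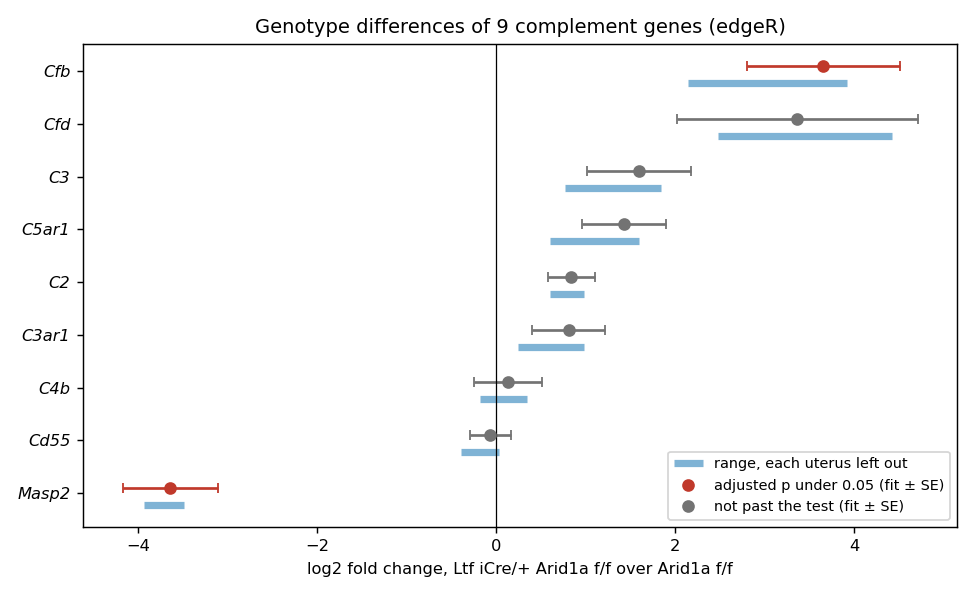
Fitted log2 fold change ± SE of each complement gene (horizontal axis, Cre-positive over control) from edgeR, with red points for an adjusted p under 0.05; blue bars span the values obtained when each of the 10 uteri was left out in turn. The bars of *C4b* (-0.18 to 0.34) and *Cd55* (-0.39 to 0.03) cross 0, while that of *Masp2* stays between -3.94 and -3.49.

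In control uteri the level per kb of exon fell in the order *C3*, *Cd55*, *C4b*, *C3ar1*, *Masp2*, *C5ar1*, *C2*, *Cfb* and *Cfd*. Only exon bases shared with no other annotated gene were counted in this length, and the same order was obtained with the whole exon length. *C3* stood at 46.3 CPM per kb (range 25.2 to 58.5) and *Cd55* at 14.1 CPM per kb (12.5 to 14.8), and the ranges of these 2 genes did not overlap. *C4b* (4.25 to 10.7 CPM per kb) and *C3ar1* (2.66 to 5.72 CPM per kb) overlapped. So did *C3ar1* with *Masp2* (0.404 to 4.94 CPM per kb), *Masp2* with *C5ar1* (1.02 to 1.64 CPM per kb), and *C5ar1* with *C2* (1.08 to 1.43 CPM per kb). *Cfb* lay between 0.217 and 0.674 CPM per kb, below *C2* and above *Cfd*, which reached 0.212 CPM per kb at most. With the whole exon length *Cfb* lay between 0.0446 and 0.138 CPM per kb and overlapped *Cfd*. The transcript of the central component was therefore the most abundant per length, and those of the 2 alternative-pathway proteases were the least abundant.

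*C3* (ENSMUSG00000024164, chromosome 17, 57203970 to 57228136, minus strand) encodes the protein on which all 3 activation pathways converge. Control uteri 1 to 5 held 130, 296, 301, 276 and 187 CPM. Cre-positive uteri 1 to 5 held 844, 275, 196, 307 and 1977 CPM. Replicates 1 and 5 stood well above every control, replicate 4 just above, and replicates 2 and 3 lay within the control range. The mean was 238 ± 76.2 CPM in controls and 720 ± 748 CPM in Cre-positive uteri (SD, n = 5 each). The fitted difference was 1.60 on the log2 scale (SE 0.58, 3.02-fold) and did not pass the test (edgeR adjusted p = 0.106, two-sided exact permutation p = 0.143). Without Cre-positive replicate 5 it was 1.70-fold (log2 0.77, edgeR adjusted p = 0.255).

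*Cfb* (ENSMUSG00000090231, chromosome 17, 34856374 to 34862518, minus strand) encodes factor B, the protease that pairs with C3b in the alternative pathway. Its values were 0.126, 0.390, 0.282, 0.227 and 0.258 CPM in control uteri 1 to 5. In Cre-positive uteri 1 to 5 they were 2.21, 0.575, 0.605, 1.16 and 11.7 CPM. All 5 stood above every control, and replicates 1, 4 and 5, which were also the 3 highest for *C3*, were the 3 highest here. *Cfb* rose 12.6-fold (log2 3.66, SE 0.86, edgeR adjusted p = 0.023, two-sided exact permutation p = 0.00794, the smallest this design can give). Replicate 5 set much of the size, since the rise was 4.41-fold without it (log2 2.14, edgeR adjusted p = 0.0163). The call was lost, with adjusted p from 0.0524 to 0.0602, when any 1 of the 5 control uteri was left out.

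The counting bears on the level of *Cfb*. The annotation holds a read-through gene, *Gm20547*, on the same strand across *Cfb* and part of *C2*, and the table lists it with 0 reads in all 10 libraries. It shares 2246 of the 2825 exon bases of *Cfb*, and reads on bases of more than 1 gene are not assigned by the counting mode used, so that the values of *Cfb* rest on its remaining 579 bases if the same gene models were used. For *C2*, 1817 of 3872 exon bases are shared with *Gm20547* or with *Zbtb12* on the other strand. Fold changes between genotypes compare the same bases, but the levels of both genes would then be understated. The microRNA gene *Mir6972* lies inside *Cfb* and held reads in only 3 libraries, Cre-positive replicates 1, 4 and 5, with 1, 6 and 25 counts.

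*Cfd* (ENSMUSG00000061780, chromosome 10, 79890853 to 79892655, plus strand) encodes factor D, or adipsin, which cleaves factor B and is known as a product of fat cells. Control uteri 1 to 5 held 0.042, 0.195, 0, 0.0426 and 0.0287 CPM, and Cre-positive uteri 1 to 5 held 0.047, 1.37, 1.88, 0.029 and 0 CPM. The gene was low in every control, where replicate 2 was highest with 14 counts, and stood above every control in Cre-positive replicates 2 and 3. The fitted log2 fold change of 3.37 (SE 1.34) did not pass the test (edgeR adjusted p = 0.138, two-sided exact permutation p = 0.31). In the same 2 libraries 5 of 6 adipocyte markers were also at their highest, though low: *Adipoq* (0.608 and 0.67 CPM), *Cidec* (0.355 and 0.327 CPM), *Plin1* (0.237 and 0.18 CPM), *Retn* (0.237 and 0.229 CPM) and *Lep* (0.0169 and 0.049 CPM). The most abundant of the 6, *Plin4*, stood at 12.1 and 7.34 CPM there against 8.13 to 13.8 CPM in controls, and the sum of all 6 was 13.5 and 8.80 CPM against 8.18 to 13.8 CPM in controls. None of the 5 adipocyte markers that could be tested passed the edgeR test, although 3 had an unadjusted p under 0.05 and DESeq2 called 1. Their part in the *Cfd* values was not tested.

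*Masp2* (ENSMUSG00000028979, chromosome 4, 148602554 to 148615499, plus strand) encodes the lectin-pathway protease that cleaves C4 and C2. Control uteri 1 to 5 held 0.601, 5.19, 7.36, 6.72 and 6.27 CPM. Cre-positive uteri 1 to 5 held 0.408, 0.389, 0.474, 0.436 and 0.376 CPM. The genotypes did not overlap, but control replicate 1 lay close to the Cre-positive uteri, and the lowest of the other 4 controls was 8.62 times as high. *Masp2* fell by 3.64 on the log2 scale (SE 0.53, edgeR adjusted p = 0.00273, two-sided exact permutation p = 0.00794). It was the 1 gene of the 9 called in all 16 alternative fits, with log2 fold changes from -3.94 without control replicate 1 to -3.36 with the replicate number as a block. Its last exons overlap *Tardbp* on the other strand over 1817 of 3307 exon bases, and whether strand was used in the counting is not given in the sources used here, so the 2 genes' reads may not be fully separated. *Tardbp* held between 22281 and 33548 counts per library.

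*Masp2* lies 14.8 Mb from *Arid1a* on the same chromosome, and the mice are of the mixed background named above. Chromosomal neighbours of *Masp2* were counted, a choice made after its values were seen. In 1469 of the 25146 tested genes (5.84%), control replicate 1 and all 5 Cre-positive uteri lay together above or below all of control replicates 2 to 5, as they did for *Masp2*. Within 2 Mb of *Masp2* this held for 25 of 102 other genes (24.5%), within 5 Mb for 38 of 173 (22.0%) and within 10 Mb for 50 of 335 (14.9%). Within 5 Mb of 6 other complement genes (*C3*, *Cfb*, *Cfd*, *C3ar1*, *C5ar1* and *Cd55*) the share ranged from 1.23% around *C3* (1 of 81 genes) to 12% around *C5ar1* (18 of 150 genes). When another control took the place of replicate 1, the count around *Masp2* was between 1 and 5 of 173 (0.578% to 2.89%). Over all tested genes the share with that pattern was then between 2.64% and 4.95%. The share of genes called by edgeR within 5 Mb of *Masp2* was 14.5%, against 9.70% of all tested genes. Around the 6 other complement genes it was between 8.82% (*C3ar1*) and 12% (*C5ar1*). Control replicate 1, which carries no Cre, had a *Masp2* level close to that of the Cre-positive uteri. The share of genes with the same pattern was larger within 5 Mb of *Masp2* than over all tested genes or around those 6 genes. The pattern itself was read from the values of *Masp2*, and all these genes were measured in the same libraries, so the shares are descriptions. This also holds for the counts with another control in the place of replicate 1. The part of this region in the fall of *Masp2* was not tested.

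**Figure D3:**
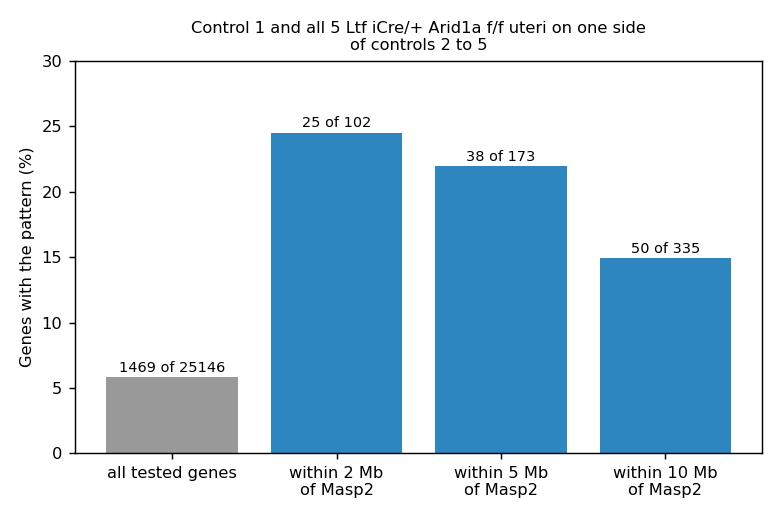
Share of genes (vertical axis, percent, from 0) in which control replicate 1 and the 5 Cre-positive uteri lay together on one side of the other 4 controls, among all tested genes (grey) and among genes within 2, 5 and 10 Mb of *Masp2* without it (blue). The pattern was read from *Masp2* itself. The share was 5.84% over all tested genes and 24.5% within 2 Mb.

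The 250 bases before the annotated start are shown for *C3*, the most abundant of these transcripts, and for *Masp2*, the gene with the largest fall, on build GRCm38.p6 (RefSeq). Such sequences were at hand for 6 of the 9 genes. The *C3* stretch is chr17:57228137-57228386 (minus strand) and the *Masp2* stretch chr4:148602294-148602543 (plus strand), both written 5′ to 3′ with the letters of TTCNNNGAA, the pattern bound by STAT factors, in capitals.
C3: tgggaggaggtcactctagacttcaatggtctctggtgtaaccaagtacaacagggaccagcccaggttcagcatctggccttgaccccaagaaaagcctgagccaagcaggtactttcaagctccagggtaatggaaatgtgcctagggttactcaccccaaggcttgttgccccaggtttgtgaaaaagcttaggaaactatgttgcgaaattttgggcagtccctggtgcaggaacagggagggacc
Masp2: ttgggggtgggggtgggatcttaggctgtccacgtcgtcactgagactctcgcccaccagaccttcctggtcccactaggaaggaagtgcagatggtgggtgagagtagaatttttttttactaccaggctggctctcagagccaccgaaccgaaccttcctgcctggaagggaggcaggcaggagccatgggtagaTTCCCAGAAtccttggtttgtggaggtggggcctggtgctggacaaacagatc
The pattern TTCNNNGAA, which reads the same on both strands, occurred once before *Masp2*, from 53 bases ahead of the start, and not before *C3*. It was found in 7.02% of the 32851 promoter stretches of this length. The consensus of kB sites, found in 3.90% of all stretches, the C/EBP consensus (0.0578%) and the full estrogen response element (0.0396%) were searched on both strands and were found in none of the 6 stretches. These are matches of letters only.

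*C2* (ENSMUSG00000024371, chromosome 17, 34862604 to 34898265, minus strand) encodes the protease subunit shared by the classical and lectin pathways. In control uteri 1 to 5 it was at 2.22, 2.69, 2.93, 2.66 and 2.94 CPM. In Cre-positive uteri 1 to 5 it was at 4.44, 2.75, 3.53, 5.62 and 7.71 CPM. In this genotype 4 of 5 uteri stood above every control, and replicate 2 lay inside the control range. The log2 fold change was 0.84 (SE 0.26, 1.79-fold), with an edgeR adjusted p of 0.0641 and a two-sided exact permutation p of 0.0238. The call depended on the test, since DESeq2 gave an adjusted p of 0.0116, and on replicate 2, without which edgeR gave 0.0269.

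*C4b* (ENSMUSG00000073418, chromosome 17, 34728380 to 34743882, minus strand) encodes complement C4, the partner of C2. The levels were 24.2, 61.0, 53.6, 35.8 and 34.6 CPM in control uteri 1 to 5, and 59.3, 40.1, 16.7, 31.6 and 81.5 CPM in Cre-positive uteri 1 to 5. The genotypes overlapped almost entirely. The log2 fold change was 0.13 (SE 0.38, edgeR adjusted p = 0.869), and it turned to -0.18 without Cre-positive replicate 5. Its paralog *C4a* ranged from 1.25 to 1.5 CPM in controls and from 0.972 to 1.93 CPM in Cre-positive uteri (log2 fold change 0.17, edgeR adjusted p = 0.677). In the annotation, 35.2% of the stretches of 50 bases in the longest coding *C4b* transcript also occur in *C4a*, so reads could be split between them.

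*C3ar1* (ENSMUSG00000040552, chromosome 6, 122847138 to 122856161, minus strand) encodes the receptor for C3a. Its values were 11.5, 20.4, 23.4, 17.8 and 24.6 CPM in control uteri 1 to 5, and 17.0, 17.8, 22.4, 35.0 and 78.6 CPM in Cre-positive uteri 1 to 5. Replicates 4 and 5 stood above every control, and the other 3 lay within the control range. The log2 fold change was 0.81 (SE 0.40, edgeR adjusted p = 0.234), and 0.24 without replicate 5.

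*C5ar1* (ENSMUSG00000049130, chromosome 7, 16246743 to 16259540, minus strand) encodes the receptor for C5a, a strong attractant of neutrophils and monocytes. Control uteri 1 to 5 held 3.45, 2.62, 3.95, 3.31 and 4.21 CPM. Cre-positive uteri 1 to 5 held 4.81, 6.30, 4.90, 5.30 and 25.8 CPM. All 5 stood above every control (two-sided exact permutation p = 0.00794). The log2 fold change of 1.43 (SE 0.47, 2.69-fold) did not pass the edgeR test (adjusted p = 0.0773), and without replicate 5 it was 1.52-fold (log2 0.60).

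Both receptors are expressed by myeloid cells, and most listed markers of these cells were highest of their genotype in Cre-positive replicate 5. *Ccr2* was instead highest in replicate 4 (164 CPM, against 131 CPM in replicate 5) and *Cd163* in replicate 2 (3.52 CPM). *Mertk* in replicate 5 (39.5 CPM) lay inside the control range. The summed level of 6 neutrophil markers was 855 CPM in Cre-positive replicate 5, from 12.1 to 22.9 CPM in the other 4 uteri of the genotype and from 5.86 to 23.1 CPM in controls. *S100a8* was at 290 CPM in replicate 5 and at most at 1.26 CPM elsewhere. The 8 macrophage markers summed to 1214 CPM in replicate 5, of which *Lyz2* alone held 816 CPM. Their sum was between 349 and 586 CPM in the other Cre-positive uteri and between 251 and 492 CPM in controls. None of these 8 passed the edgeR test, 3 had an unadjusted p under 0.05 and DESeq2 called 3. Of the 6 neutrophil markers edgeR called 1, *Ly6g*, which rose, while 5 had an unadjusted p under 0.05 and DESeq2 called 1. Of 5 inflammatory monocyte markers edgeR called 1, *Chil3*, which rose, while 2 had an unadjusted p under 0.05 and DESeq2 called 2. *Chil3* stood at 8.48 CPM in Cre-positive replicate 5 and at 0.0507 CPM, below every control, in replicate 2 (two-sided exact permutation p = 0.0714). Over all tested genes edgeR called 9.70%. The 5 mast cell markers summed to 121 CPM in replicate 5 and to between 40.5 and 94.9 CPM elsewhere, and edgeR called none of them, DESeq2 called none and no unadjusted p was under 0.05. The part of these cells in either receptor's values was not tested.

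*Cd55* (ENSMUSG00000026399, chromosome 1, 130439027 to 130462744, minus strand) encodes decay-accelerating factor, a membrane protein that takes the C3-cleaving enzymes apart. Levels of 68.5, 70.4, 67.5, 59.3 and 68.6 CPM were measured in control uteri 1 to 5. The 5 Cre-positive uteri, in the same order, held 59.1, 45.9, 49.7, 48.8 and 115 CPM. In this genotype 4 uteri lay below every control and replicate 5 above every control. With all uteri the log2 fold change was -0.07 (SE 0.23, edgeR adjusted p = 0.891), and without replicate 5 it was -0.39 (edgeR adjusted p = 0.0247). Its paralog *Cd55b*, a membrane regulator of the same kind, rose from 0.0206 ± 0.0178 to 0.403 ± 0.443 CPM (SD, n = 5 each, edgeR adjusted p = 0.0218). *Cd55b* had 7 reads in all controls together and 132 in all Cre-positive uteri, a ratio of 20.3 per library size (95% exact interval 9.59 to 51.5, counting error only). It was highest in Cre-positive replicates 1 and 5 (1.05 and 0.68 CPM). Replicate 3, at 0.049 CPM, was close to the highest control (0.047 CPM). In the longest coding *Cd55* transcript 13.3% of the stretches of 50 bases also occur in *Cd55b*.

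Of 45 other complement genes, 40 had enough counts to be tested, and 6 rose and 5 fell by the edgeR test (15.0% and 12.5%, against 5.19% and 4.51% of all tested genes). Their median log2 fold change was 0.31, against 0.03 over all tested genes. DESeq2 called 13 of the 40, which include *Fcnb*, *Vsig4* and *Itgam*, to which it gave no adjusted p. Over all genes to which it gave an adjusted p, it called 19.0%. The 5 that were too low to be tested were *Mbl1*, *Mbl2*, *C8b*, *Cpn2* and *Cpb2*.

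In the classical pathway 1 of 8 genes rose and 3 fell. *C1ra*, which encodes the C1r protease, fell from 84.6 ± 11.5 to 56.4 ± 7.05 CPM (log2 -0.59, SE 0.11, edgeR adjusted p = 0.00989), and *C1s1*, the C1s protease, fell from 377 ± 29.1 to 285 ± 39.3 CPM (log2 -0.40, edgeR adjusted p = 0.0385). Both did so without overlap between genotypes. Their second copies went separate ways, *C1rb* falling from 0.25 ± 0.0687 to 0.0771 ± 0.0396 CPM (edgeR adjusted p = 0.0306) and *C1s2* rising from 2.02 ± 0.357 to 5.08 ± 1.95 CPM (edgeR adjusted p = 0.0153). Of the stretches of 50 bases in *C1rb*, 59.2% occur in *C1ra*, and of those in *C1s2*, 26.9% occur in *C1s1*. The 3 chains of C1q, which macrophages make, had log2 fold changes of 0.61 (*C1qa*), 0.64 (*C1qb*) and 0.54 (*C1qc*) and did not pass the edgeR test, with adjusted p of 0.134, 0.159 and 0.265.

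In the lectin pathway 1 of 6 tested genes fell and none rose by the edgeR test, while 2 had an unadjusted p under 0.05 and DESeq2 called 1. The gene that fell was *Colec12*, which encodes a membrane collectin, from 207 ± 14.9 to 141 ± 32.6 CPM (log2 -0.55, edgeR adjusted p = 0.0418). *Masp1*, the other MASP protease, ranged from 5.18 to 9.25 CPM in controls and from 0.847 to 5.41 CPM in Cre-positive uteri (log2 -0.88, edgeR adjusted p = 0.173). The soluble recognition proteins were low, *Fcna* reaching 1.24 CPM and *Colec11* 0.502 CPM at most. Properdin (*Cfp*), which stabilizes the alternative-pathway enzyme, had a log2 fold change of 0.19 (edgeR adjusted p = 0.467).

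In the terminal pathway, whose proteins form the membrane attack complex, none of 6 tested genes passed the edgeR test, DESeq2 called none and none had an unadjusted p under 0.05. *C9*, the pore-forming subunit, ranged from 1.85 to 2.84 CPM in controls and from 0.423 to 3.46 CPM in Cre-positive uteri. *Hc*, which encodes C5, reached 2.08 CPM at most.

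Of 6 other receptor genes 1 rose. *Itgb2*, the beta chain of complement receptors 3 and 4, held 16.9 to 23.8 CPM in controls and 23.2 to 71.9 CPM in Cre-positive uteri and rose (log2 1.03, edgeR adjusted p = 0.0404). Its partner chains *Itgam* (log2 0.95) and *Itgax* (log2 0.81) did not pass the edgeR test, with adjusted p of 0.2 and 0.0708. *C5ar2*, the second C5a receptor, held 0.235 to 1.36 CPM in controls and 1.62 to 5.63 CPM in Cre-positive uteri without overlap (log2 1.79, edgeR adjusted p = 0.0533, two-sided exact permutation p = 0.00794).

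Among 7 tested fluid-phase regulators 2 rose and 1 fell. *Cfi*, which encodes factor I, the protease that inactivates C3b, held 4.41, 9.91, 7.83, 5.68 and 5.73 CPM in control uteri 1 to 5 and 77.9, 13.4, 9.38, 16.5 and 244 CPM in Cre-positive uteri 1 to 5. Only replicate 3 lay inside the control range. *Cfi* rose 10.8-fold (log2 3.43, SE 0.85, edgeR adjusted p = 0.0289), but 4.37-fold without replicate 5 (log2 2.13, edgeR adjusted p = 0.0381). *C4bp*, the binding protein of C4b, rose from 0.453 ± 0.0277 to 1.14 ± 0.619 CPM (edgeR adjusted p = 0.0353), and *Vtn*, which encodes vitronectin, fell from 8.90 ± 1.73 to 4.76 ± 0.971 CPM (edgeR adjusted p = 0.0137).

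Of the 6 other membrane regulators 2 rose, *Cd55b* as given above and *Susd4*, an inhibitor of the C3-cleaving enzymes, from 4.56 ± 0.489 to 7.44 ± 1.57 CPM (log2 0.71, edgeR adjusted p = 0.0256). *Cd46*, *Cr1l*, *Cd59a* and *Cd59b* had log2 fold changes between -0.25 and 0.10, none past the test.

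**Figure D4:**
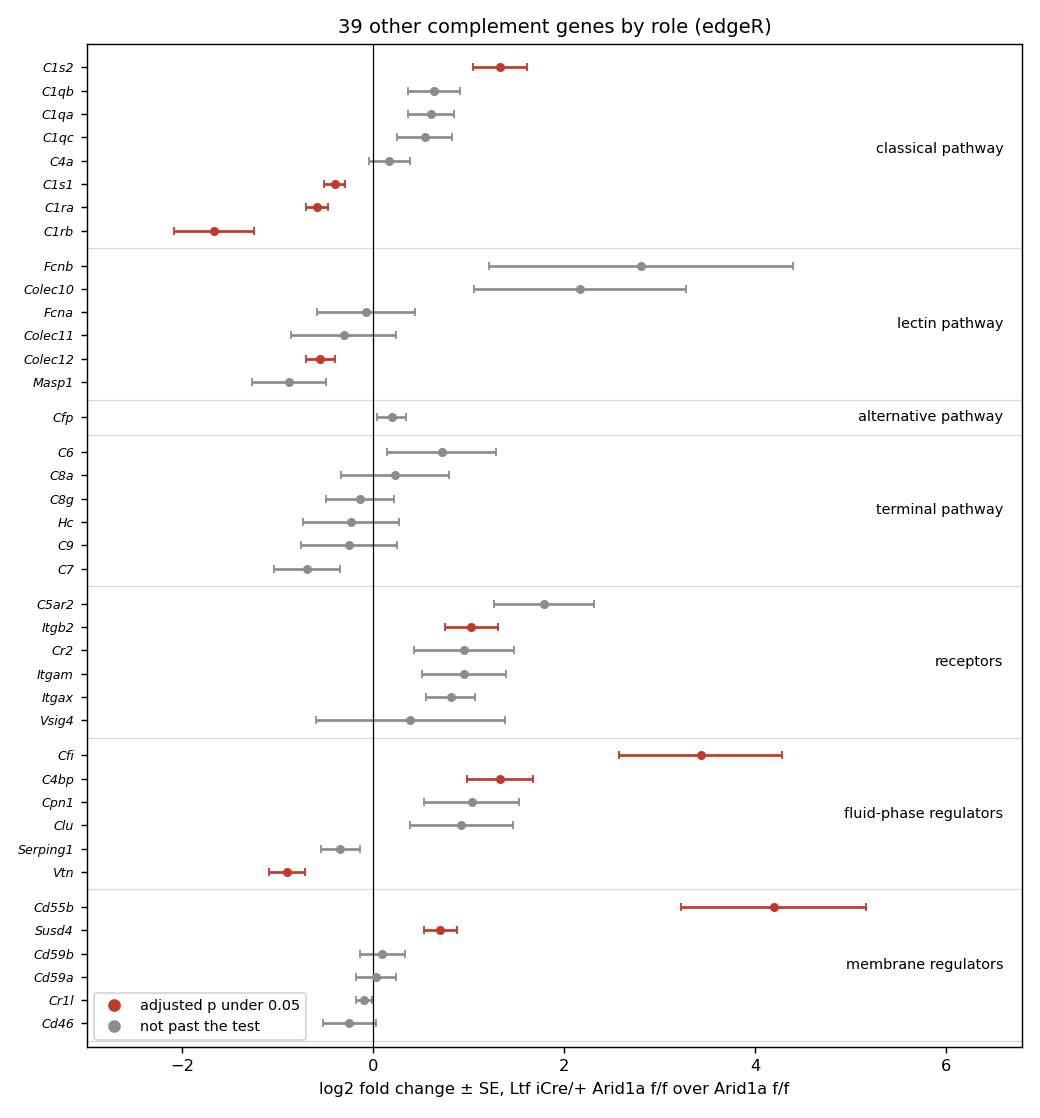
Fitted log2 fold change ± SE (horizontal axis, Cre-positive over control) of 39 of the 40 tested complement genes other than the 9 above, grouped by role, with red points for an edgeR adjusted p under 0.05. The 6 that rose were *C1s2*, *Itgb2*, *Cfi*, *C4bp*, *Cd55b* and *Susd4*, and the 5 that fell were *C1ra*, *C1rb*, *C1s1*, *Colec12* and *Vtn*.

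Fewer pathway genes passed the edgeR test when any 1 uterus was left out. With any 1 control left out between 3 and 6 of the 40 were called, and with Cre-positive replicate 4 left out 7 were called. *C1ra*, *C1s2* and *Vtn* were called in all 10 fits with 1 uterus left out. *Cd55b* was called in 8 of these fits, *Susd4* in 6 and *Cfi* in 5. *C1rb*, *Colec12* and *C4bp* were called in 3 each, and *C1s1* and *Itgb2* in 2 each.

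The genes most like *C3* were ranked by Pearson's r of the deviations of log2 CPM from the genotype means over the 10 uteri, among 14590 other genes with a mean of at least 100 counts. They were *Smpd3* (r 0.979), which encodes a neutral sphingomyelinase, *Tgfa* (r 0.975), a growth factor, *Cfi* (r 0.974), *Lemd1* (r 0.973) and *Clu* (r 0.973), which encodes clusterin, a fluid-phase regulator of complement. Spearman's rho was between 0.915 and 0.976. Without the 2 uteri farthest from the median, Cre-positive replicates 3 and 5, r was between 0.918 and 0.959. *Cfb* was 14th in this ranking (r 0.952) and *C2* was 1038th (r 0.739). Without the same 2 uteri r was 0.866 for *Cfb* and 0.393 for *C2*. These are descriptions across uteri that share libraries, and the genes differed in their genotype difference, from a log2 fold change of 0.10 for *Tgfa* (edgeR adjusted p = 0.725) to 3.43 for *Cfi*. *Clu* itself held 44.9, 73.2, 63.4, 58.4 and 49.4 CPM in control uteri 1 to 5 and 105, 45.2, 35.3, 45.7 and 317 CPM in Cre-positive uteri 1 to 5 (log2 0.92, edgeR adjusted p = 0.313).

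**Figure D5:**
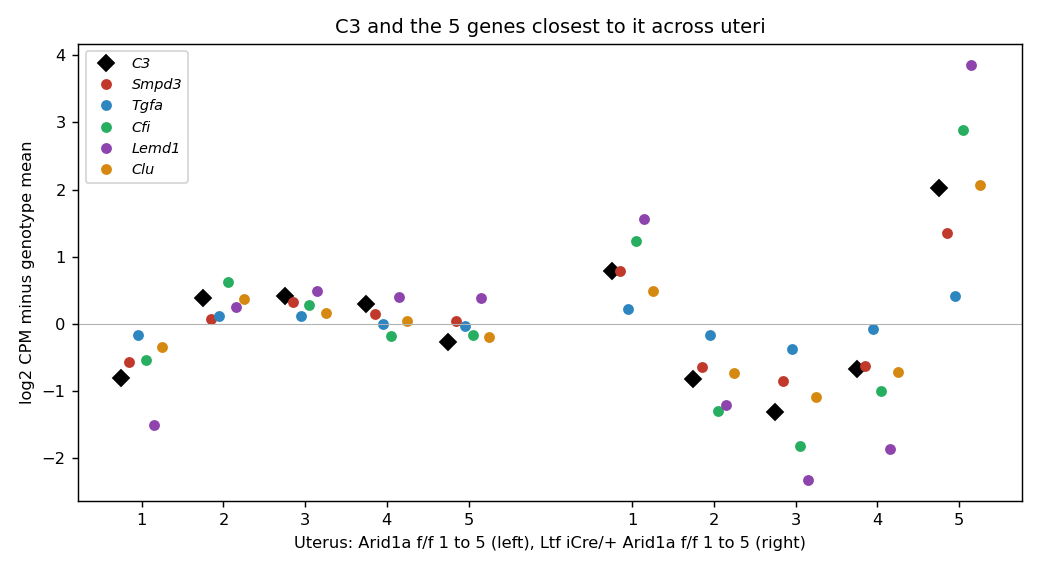
Deviation of log2 CPM from the mean of the genotype (vertical axis) for *C3* (black diamonds) and the 5 genes ranked closest to it (circles) in each uterus, controls on the left and Cre-positive uteri on the right. All 6 genes were highest in Cre-positive replicate 5, next highest in replicate 1 and lowest in replicate 3.

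Epithelial and vascular markers also differed between the genotypes. Of 6 epithelial markers 4 rose by the edgeR test, *Epcam*, *Krt8*, *Krt19* and *Cdh1*, against 5.19% of all tested genes. An unadjusted p under 0.05 was found for 5, and DESeq2 called 5. The summed level of the 6 was 614 to 819 CPM in controls and 909 to 1804 CPM in Cre-positive uteri. *Epcam* held 330, 122, 104, 137 and 322 CPM in Cre-positive uteri 1 to 5 and 73.5 to 102 CPM in controls, and was highest in replicates 1 and 5, as were *C3*, *Cfb*, *Cfi* and *C4bp*. The other epithelial markers did not all share this order. *Krt19* was also highest in these 2 uteri (298 and 223 CPM), but *Krt8* and *Cdh1* were lower in replicate 5 (177 and 387 CPM) than in replicate 4 (178 and 405 CPM), *Krt18* was lowest of the genotype in replicate 5 (127 CPM) and *Cldn4* was lowest in replicates 1 and 5 (22.0 and 35.8 CPM). Of 6 gland markers 1, *Foxa2*, fell by the edgeR test, against 4.51% of all tested genes. The sum of the 6 was 76.0 to 122 CPM in controls and 13.2 to 50.3 CPM in Cre-positive uteri. All 6 had a fitted log2 fold change below 0, 4 had an unadjusted p under 0.05 and DESeq2 called 2. The values of *Foxa2*, *Cxcl15* and *Spink1* did not overlap between genotypes. All 5 endothelial markers fell by the edgeR test, against 4.51% of all tested genes, and DESeq2 called all 5. Their sums were 669 to 936 CPM in controls and 305 to 464 CPM in Cre-positive uteri. Of 6 stromal markers 2 fell by the edgeR test, *Dcn* and *Vim*, against the same 4.51%, while 3 had an unadjusted p under 0.05 and DESeq2 called 3. None of 5 myometrial markers passed the edgeR test, with 1 unadjusted p under 0.05 and 1 called by DESeq2. Of 5 tested blood or liver genes none passed the edgeR test, with 1 unadjusted p under 0.05 and 1 called by DESeq2, and the liver genes *Alb* and *Fga* reached 0.392 and 0.0313 CPM at most. The part of these shifts in the complement values was not tested.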

How the data were processed

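The libraries, paired end with 50 bp reads, came from GD 3.5 uterine RNA of 5 control and 5 Cre-positive mice. The submitters' processing notes name cutadapt 1.18, Trim Galore 0.6.4, FastQC 0.11.9, STAR 2.7.3a and GRCm38, and the authors deposited STAR gene counts without normalization or filter. The strand setting and the annotation release are not given in the sources used here. Symbols and positions were taken from GENCODE vM21. Genes averaging 1 count or more per library were kept, and their counts were tested with edgeR 4.0.16 in R 4.3.3 (quasi-likelihood, TMM, genotype only, Benjamini-Hochberg, threshold 0.05), and DESeq2 1.42.0 was an alternative. Libraries of 59296537 to 72702411 counts put 3 counts at about 0.04 CPM. Log2 CPM used a prior count of 2. Exact tests used scipy 1.17.1 over 252 arrangements, and drawings matplotlib 3.10.9. The fit was tested on simulated data. Groups came from the genotype given for each sample, and replicate numbers from sample titles.

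The members, the lists of other complement genes and of markers, and the tests were chosen with earlier results of these data known. The genes named were the 9 members, other complement genes past the test, the paralogs *C4a* and *Cd55b*, *Arid1a*, *Ltf* and the 5 genes most like *C3*. Other complement genes and markers are named as list members and were chosen after their values were seen. Alternatives were another scaling, other filters, DESeq2, plain library totals, the replicate number as a block and the omission of each uterus. The p-values measure the spread between uteri, and litters are not given. One gene of the list of other complement genes is counted in the totals but not reported here.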

Additional observations from a re-analysis of the deposited data

Results flagged for a closer look

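In groups of 5, the gap between the most extreme uterus and the next was compared with the range of the group. For independent, normally distributed values chance sets apart about 1 group in 20. These were CPM on a linear scale, of genes from the same libraries, so the number that chance would set apart here is not known. Of 40 groups examined (9 complement genes and 11 other complement genes past the test, in each genotype), 6 were set apart, and 3 of these by Cre-positive replicate 5. That uterus was far above the other 4 of its genotype for *Cfb* (11.7 CPM), *C5ar1* (25.8 CPM) and *Cd55* (115 CPM). In controls, replicate 2 stood above the others for *Cfd* (0.195 CPM), replicate 3 above the others for *C4bp* (0.501 CPM) and replicate 4 below the others for *Cd55* (59.3 CPM).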

How the results depend on the processing

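*Masp2* kept its direction and its call in all 16 alternative fits. Of the 9 complement genes, 2 were called with RLE size factors, filterByExpr or no filter, as in the main comparison, and 3 with DESeq2. With each uterus left out the count ranged from 1 to 3, and with the replicate block it was 1. With Cre-positive replicates 2 and 3 left out together, chosen after seeing the data, it was 4, with *C3* (adjusted p = 0.0242) and *C2* added, but these 2 uteri held the lowest *C3* and *C2* of their genotype. For the 40 other complement genes the count of 11 ranged from 3 to 10 with each uterus left out and was 6 with the replicate block. The same-numbered uteri did not deviate together (correlations from -0.03 to 0.08, own number closest for 2 of 5), so the block pairs numbers only. *Cfb* had an adjusted p of 0.0834 with it. The log2 fold change of *C4b* turned to -0.02 without control replicate 1 and to -0.18 without Cre-positive replicate 5 (-0.18 to 0.34 with each uterus left out). That of *Cd55* turned to 0.03, 0.01 and 0.01 without Cre-positive replicates 2, 3 and 4, (-0.39 to 0.03 with each uterus left out), and to 0.15 without replicates 2 and 3, where *Cfd* turned to -1.26, these 2 uteri holding nearly all its Cre-positive reads. DESeq2 gave no adjusted p for *C5ar1*, and filterByExpr removed *Cfd* and, of the other complement genes called, *Cd55b* and *C1rb*. Plain library totals moved no mean by as much as 1 SD. The cause of these changes was not tested. At this depth *Cfd* and *Cd55b* rest on a few reads per control library.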
